A study of Mus musculus with 20 samples.

Results

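The proximal tubule of the kidney takes up filtered protein through a small set of endocytosis genes, and 6 of them were followed here across ischemia/reperfusion injury (IRI), ischemic pre-conditioning (IPC) and Hemin treatment: Lrp2, Cubn, Amn, Dab2, Clcn5 and Folr1. They were found by the gene name printed on the array, a rule that holds no measured value, but the set was proposed with earlier results of these data known. All 6 were found among its 27827 gene names, and all 6 passed the filter on dim genes in each of the 8 comparisons. Together they are covered by 12 probes, 4 for Lrp2, 1 each for Cubn and Amn, and a pair each for Dab2, Clcn5 and Folr1.

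Megalin, encoded by Lrp2, is a large receptor of the LRP family on the apical brush border. It works with cubilin (Cubn), a peripheral membrane protein that amnionless (Amn) escorts to the cell surface, and together these receptors clear albumin, vitamin carriers, hormones and light chains from the filtrate. Disabled-2 (Dab2) is the adaptor that ties the tail of megalin to clathrin, ClC-5 (Clcn5) is the chloride/proton exchanger of early endosomes whose loss causes Dent disease, and folate receptor alpha (Folr1) is a lipid-anchored receptor that recovers filtered folate.

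Whole-kidney RNA of male C57BL/6 mice aged 8 to 12 weeks was hybridised to 20 one-color arrays, with 4 arrays in each of 5 groups. The Control group had neither surgery nor drug, and there was no sham-operated group. The IRI group had both renal pedicles clamped for 45 minutes and was killed 6 hours after reperfusion. The IRI+Hemin group received the same procedure 24 hours after an intraperitoneal dose of 25 mg/kg Hemin, an inducer of heme oxygenase-1. In the IPC+IRI group both pedicles had been clamped for 15 minutes, 7 days before the same IRI procedure, so this group was operated on before the IRI procedure, unlike the other groups with IRI. The Hemin group received the drug without surgery. The mice carried no engineered allele according to the labels. Whole kidney is a mixture of cell types, so a lower signal from fewer proximal tubule cells and a lower signal from less RNA per cell cannot be told apart.

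Values below are log2 of a gene's signal divided by the 75th percentile of its array, so a value of 0 equals that percentile and a difference of 1 is a 2-fold change. A gene was called higher or lower at a Benjamini-Hochberg adjusted p below 0.05 in a limma fit over all genes tested, and the interval given with a difference is the 95% confidence interval. The 75th percentile of the arrays lay between 146.7 and 357.9 intensity units, and arrays of a group correlated at 0.975 to 0.995. The tissue label was met by the markers: the 8 markers of proximal tubule segments 1 and 2 and the 10 markers of the whole proximal tubule or segment 3 were well above background on all 20 arrays, as were the 5 podocyte, 6 collecting duct and 5 thick limb or distal tubule markers. The 5 groups were each hybridised to a separate slide, and a slide effect cannot be told apart from a group effect. By scan day, Control went with IRI, IPC+IRI went with Hemin, and IRI+Hemin stood alone, so that only IRI vs Control and IPC+IRI vs Hemin compare arrays of one scan day.

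Single probes of a gene are compared below, and where each lies in its transcript is given first. Whether position accounts for any difference between probes was not tested. The array files give positions on mouse build mm9 and gene models crossed by a gap where a probe spans an exon junction. On chromosome 2, minus strand, Lrp2 probe 1 lies at chr2:69262566-69262625, probe 2 at chr2:69263648-69263707, probe 3 across a junction at chr2:69274792-69275529 and probe 4 across a junction at chr2:69345884-69346029. Probe 4 therefore lies 83318 bases of genome upstream of probe 1, the one nearest the 3′ end. The Cubn probe lies at chr2:13197988-13198047 on the minus strand, and the Amn probe spans a junction at chr12:112514095-112514243 on the plus strand. Dab2 probe 1 lies at chr15:6389424-6389483 on the plus strand and probe 2 spans a junction 14843 bases upstream of it at chr15:6374197-6374640. Clcn5 probe 1, designed from the cDNA clone AK017285, lies at chrX:6730950-6731009 on the minus strand, and probe 2, designed from the reference transcript, lies 5838 bases upstream at chrX:6736788-6736847. Folr1 probe 1 lies at chr7:109006929-109006988 on the minus strand and probe 2 lies 10043 bases upstream at chr7:109016972-109017031. All 12 probes were well above background on all 20 arrays and none was saturated.

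The 4 probes that span an exon junction report spliced RNA, and their 60-base sequences are shown for that reason, in transcript sense and in lower case throughout.
Amn probe 1: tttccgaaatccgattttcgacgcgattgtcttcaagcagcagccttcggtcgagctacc
Dab2 probe 2: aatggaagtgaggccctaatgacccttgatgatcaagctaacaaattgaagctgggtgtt
Lrp2 probe 3: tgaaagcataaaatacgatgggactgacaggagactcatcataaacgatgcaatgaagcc
Lrp2 probe 4: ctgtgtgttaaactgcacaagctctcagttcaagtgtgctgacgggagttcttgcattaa
Their GC content was 51.7%, 43.3%, 41.7% and 45.0%, and each can be read without a stop codon in at least 1 frame.

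Lrp2, Cubn and Dab2 are the members that were called together in IRI, and their promoter windows are shown for comparison: the 250 bases before a RefSeq transcription start on GRCm38.p6, read in the direction of transcription.
Lrp2, chr2:69586030-69586279, minus strand: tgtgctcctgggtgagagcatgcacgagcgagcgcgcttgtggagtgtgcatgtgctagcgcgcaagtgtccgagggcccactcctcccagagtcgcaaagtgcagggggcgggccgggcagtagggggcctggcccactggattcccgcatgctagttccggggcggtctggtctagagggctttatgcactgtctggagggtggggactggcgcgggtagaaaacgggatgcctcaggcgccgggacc
Cubn, chr2:13491877-13492126, minus strand: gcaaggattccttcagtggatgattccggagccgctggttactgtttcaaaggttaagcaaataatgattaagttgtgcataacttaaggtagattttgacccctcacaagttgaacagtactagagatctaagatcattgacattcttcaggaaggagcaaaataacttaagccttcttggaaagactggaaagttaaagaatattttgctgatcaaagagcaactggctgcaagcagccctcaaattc
Dab2, first window, chr15:6299539-6299788, plus strand: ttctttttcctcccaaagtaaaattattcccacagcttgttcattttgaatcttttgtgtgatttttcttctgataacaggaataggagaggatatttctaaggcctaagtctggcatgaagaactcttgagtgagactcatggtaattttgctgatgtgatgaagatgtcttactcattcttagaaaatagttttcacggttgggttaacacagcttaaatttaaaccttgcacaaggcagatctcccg
Dab2, second window, chr15:6386498-6386747, plus strand: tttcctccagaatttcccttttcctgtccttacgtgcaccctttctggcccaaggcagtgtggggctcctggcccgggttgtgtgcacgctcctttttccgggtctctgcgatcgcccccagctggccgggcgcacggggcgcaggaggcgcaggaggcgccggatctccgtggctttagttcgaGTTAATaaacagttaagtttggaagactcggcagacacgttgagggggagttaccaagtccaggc
The GC content of the Lrp2 window was 66.4% and that of the Cubn window 39.6%, and the Dab2 windows had 36.8% and 60%, against a median of 52.4% and a 10th to 90th percentile range of 38.8% to 69.2% over all windows. Windows were searched on both strands for gttaat, the half-site of the proximal tubule factor HNF1, and for caaagtcca or caaaggtca, short strings from sites bound by HNF4. Among the 7 windows of the 5 members that had one, gttaat was found only in the second Dab2 window, in capitals, and neither HNF4 string was found in any. Of all 32851 windows, 6.43% held gttaat and 0.807% held an HNF4 string. A match is a description of letters and not of a bound site, and the windows lie on another build than the probes.

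The comparison of IRI with Control asks what 45 minutes of ischemia and 6 hours of reperfusion did to the apical uptake genes. Both large receptors and the adaptor fell: Lrp2 was 1.93-fold lower, Cubn 1.46-fold lower and Dab2 1.25-fold lower, while Amn, Clcn5 and Folr1 were not called. None of the 6 was called higher. Thus 3 of 6 were called lower, where 33.7% of all 17711 genes tested were called lower, 17% higher and 50.7% in either direction. The median difference of the 6 was −0.28, beside −0.17 over all genes.

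Lrp2 read 5.40, 5.57, 5.44 and 5.47 on the 4 Control arrays and 4.68, 4.47, 4.54 and 4.39 on the 4 IRI arrays. Every IRI array lay below every Control array, and the group means of 5.47 ± 0.07 and 4.52 ± 0.12 (SD, n = 4) were further apart than the arrays of either group. The difference in log2 signal was −0.95 (SE 0.10, interval −1.16 to −0.74, limma adjusted p = 9.02e-07), and it held in all 19 other fits run for it, which changed the processing or left out 1 array.

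Cubn read 4.99, 5.36, 5.12 and 5.01 in Control and 4.79, 4.66, 4.63 and 4.24 in IRI. Again no IRI array reached the Control range. The difference was −0.54 (SE 0.16, interval −0.88 to −0.20, limma adjusted p = 0.00926), and it was lost in 1 of 19 other fits, the one without normalization between arrays (adjusted p = 0.209, against 0.0021 to 0.209 over all of them). Lrp2 and Cubn were the members whose groups did not overlap, 2 of 6, where 46.1% of all genes had groups that did not overlap.

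Dab2 read 3.37, 3.00, 3.38 and 3.23 in Control and 2.90, 2.92, 3.06 and 2.80 in IRI, so that Control replicate 2 fell inside the IRI range. The difference was −0.32 (SE 0.12, limma adjusted p = 0.0281). It kept its sign in all 20 other fits and was called in 12 of them, with adjusted p from 0.00407 to 0.621. It was lost without Control replicate 1 (0.08), Control replicate 3 (0.0814), IRI replicate 1 (0.0546) or IRI replicate 4 (0.0734), as well as under normexp background correction (0.116), without normalization between arrays (0.621), with the mean of log2 values over probes (0.103) and with only the 8 arrays compared (0.0595).

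Amn, the chaperone of cubilin, had a mean of 4.52 ± 0.11 in Control and 4.28 ± 0.11 in IRI (SD, n = 4), a difference of −0.24 with an interval of −0.48 to 0.00 (adjusted p = 0.0925). Folr1 read 5.18, 4.99, 5.25 and 5.24 in Control and 4.90, 5.31, 5.34 and 4.61 in IRI, which spread over a wider range on both sides of Control (−0.13, interval −0.43 to 0.17, adjusted p = 0.483). Clcn5 as a gene differed by 0.01 (interval −0.24 to 0.25, adjusted p = 0.959), but this value averages a pair of probes that moved apart, as described further on.

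**Figure D1:**
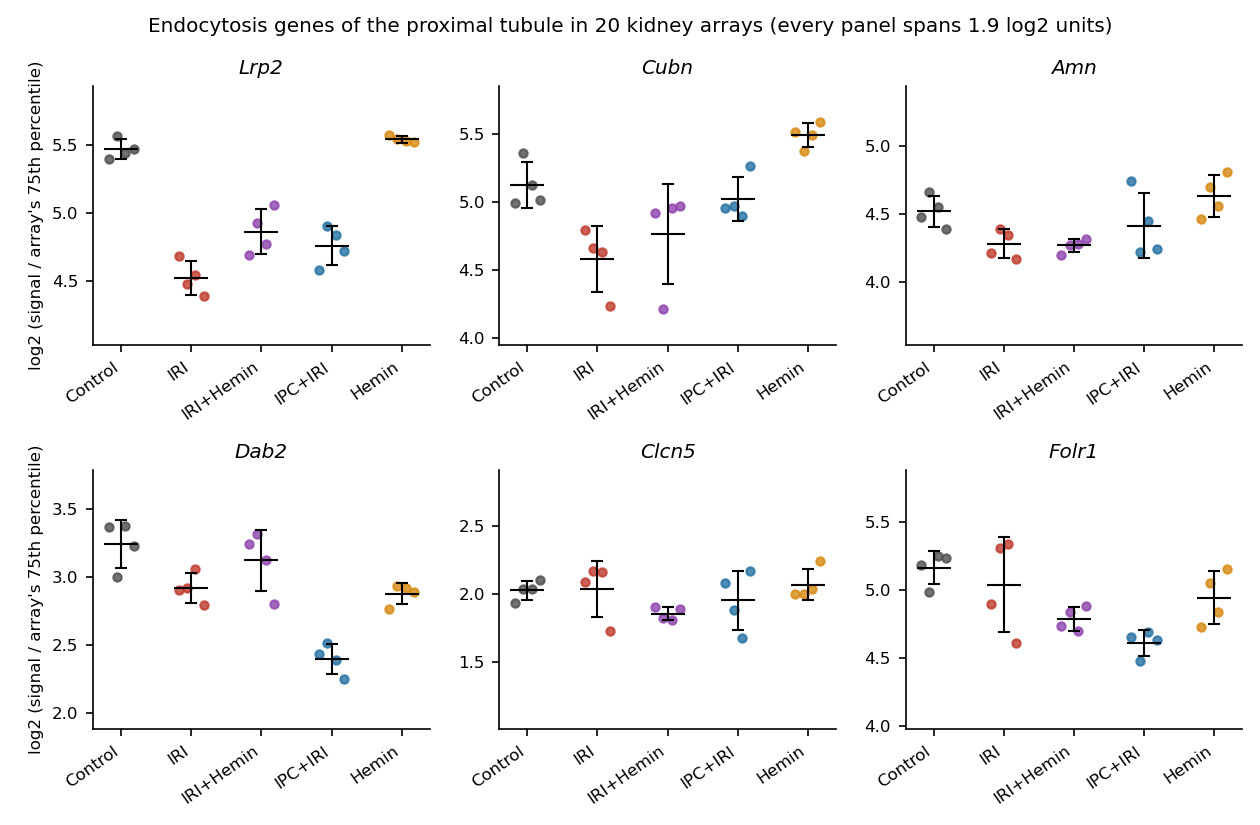
Signal of each of the 6 genes (vertical axis, log2 of signal over the array's 75th percentile, panels spanning the same number of log2 units) in the 5 groups, where points are single arrays and bars show mean ± SD of 4 arrays. Lrp2 sits at 5.40 to 5.58 on the arrays without IRI and at 4.39 to 5.06 on the arrays with it. The Clcn5 groups overlap, apart from IRI+Hemin, whose arrays all lie below those of Control and of Hemin.

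IRI+Hemin vs IRI addresses whether Hemin given before injury changed these genes. Lrp2 was called 1.27-fold higher and was the only member called, 1 of 6, where 26.1% of 17831 genes were called higher and 44.1% in either direction. The IRI+Hemin arrays read 4.69, 4.92, 4.77 and 5.06, all above the IRI arrays (4.68 at most) and all below Control. The difference from IRI was 0.34 (SE 0.10, interval 0.13 to 0.55, limma adjusted p = 0.0105). It held without each of the 8 arrays in turn and was lost under quantile normalization (0.0628), with the mean of log2 values over probes (0.85), where the difference itself shrank to 0.03, and when only the 8 arrays of the groups entered the fit (0.0569), within a range of 0.00113 to 0.85 over 20 other fits. Against Control, Lrp2 remained lower by 0.61 on the log2 scale (−0.61, adjusted p = 6.49e-05).

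The other members did not differ between IRI+Hemin and IRI by the test. Cubn read 4.92, 4.21, 4.95 and 4.97 in IRI+Hemin, with replicate 2 far below the other arrays and below every IRI array (difference 0.18, interval −0.15 to 0.52, adjusted p = 0.375). Without that array the difference was 0.37 with an adjusted p of 0.0375. Dab2 was 0.20 higher (adjusted p = 0.169, and 0.031 without IRI+Hemin replicate 4). Folr1 was lower by 0.25 (−0.25, adjusted p = 0.163) and Clcn5 by 0.18 (−0.18, adjusted p = 0.22), and both were called lower without IRI replicate 4 (0.0193 and 0.0457). Amn differed by −0.01 (adjusted p = 0.939). The median over the 6 was 0.09, beside 0.08 over all genes, and Lrp2 was the only member whose groups did not overlap, 1 of 6 against 38.9% of genes.

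IRI+Hemin vs Control shares its Control arrays with IRI vs Control, and its values are given beside it for that reason. Lrp2 and Folr1 were called lower, 2 of 6 where 33.2% of 18483 genes were called lower and 57.5% in either direction. Folr1 read 4.73, 4.83, 4.70 and 4.88, below all Control arrays, a difference of −0.38 (SE 0.14, adjusted p = 0.0311). This call was lost without Control replicate 1, 3 or 4 or IRI+Hemin replicate 1 or 3 (0.0585 to 0.0741). Cubn (−0.36, adjusted p = 0.0636) and Amn (−0.25, adjusted p = 0.07) missed the threshold, although 5 of 6 members had IRI+Hemin arrays that all lay below Control. Over all genes 47.2% had groups that did not overlap, a share that counts both directions. Cubn was called lower without IRI+Hemin replicate 3 or 4. Dab2 was the exception, with overlapping arrays and a difference of −0.12 (adjusted p = 0.393).

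IPC+IRI vs IRI asks how injury differed in kidneys that had been pre-conditioned. The called members differed in direction. Cubn was 1.36-fold higher in IPC+IRI, and Dab2 and Folr1 were 1.44-fold and 1.34-fold lower. That is 1 of 6 called higher and 2 of 6 called lower, where 26% and 17.7% of 17663 genes were called, 43.7% in either direction. The median difference of the members was 0.03, beside 0.09 over all genes.

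Cubn read 4.95, 4.97, 4.90 and 5.26 in IPC+IRI, each above the highest IRI array at 4.79. The difference was 0.44 (SE 0.16, interval 0.10 to 0.78, limma adjusted p = 0.0334). The call was lost without IRI replicate 3 (0.0526), IRI replicate 4 (0.115) or IPC+IRI replicate 4 (0.0998), under quantile normalization (0.0859) and normexp (0.0502), with the replicate block (0.0522) and by the methods' t-test after Benjamini-Hochberg adjustment (0.063), so that it was called in 12 of 19 other fits, which ran from 0.0194 to 0.115. Against Control, Cubn differed by −0.10 (interval −0.44 to 0.24, adjusted p = 0.616).

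Dab2 was at its lowest in IPC+IRI. The 4 arrays read 2.44, 2.51, 2.39 and 2.26, below all arrays of the other 4 groups. Against IRI the difference was −0.52 (SE 0.12, interval −0.77 to −0.28, limma adjusted p = 0.00173). It held in 18 of 20 other fits and without each array in turn, and was lost under normexp (0.0801) and without normalization between arrays (0.576), within 0.000337 to 0.576. Against Control it was lower by 0.84 (−0.84, 1.79-fold, adjusted p = 1.39e-05), and this was called in 19 of 20 other fits.

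Folr1 read 4.65, 4.47, 4.69 and 4.63 in IPC+IRI, a narrow range that reached past the lowest IRI array at 4.61. The difference from IRI was −0.43 (SE 0.14, interval −0.73 to −0.13, limma adjusted p = 0.0225), which was called in 11 of 19 other fits and lost without IPC+IRI replicate 2 (0.0584), IRI replicate 2 (0.0783) or IRI replicate 3 (0.0873), in a range of 0.00211 to 0.714. Against Control it was −0.55 (1.47-fold, adjusted p = 0.00327), with no overlap between the arrays.

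Lrp2 read 4.58, 4.91, 4.83 and 4.72 in IPC+IRI. Replicate 1 lay inside the IRI range, and all 4 arrays lay below Control. The mean differed from IRI by 0.24 (interval 0.03 to 0.45, adjusted p = 0.0613, called without IPC+IRI replicate 1 or IRI replicate 1) and from Control by −0.71 (1.63-fold lower, adjusted p = 1.65e-05). Amn (0.13, adjusted p = 0.361) and Clcn5 (−0.08, adjusted p = 0.582) were not called against IRI. Cubn and Dab2 were the members without overlap against IRI, 2 of 6 beside 37.9% of genes. In IPC+IRI vs Control, which shares its Control arrays with IRI vs Control, 3 of 6 members were called lower where 32.6% of 18342 genes were called lower and 55.8% in either direction, the same 3 did not overlap beside 45.1% of genes, and the median was −0.33 beside −0.09.

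Hemin vs Control measures the drug without injury. Dab2 was the 1 member of 6 called, 1.29-fold lower, where 17.6% of 18572 genes were called lower and 36% in either direction. Its Hemin arrays read 2.76, 2.93, 2.92 and 2.90, just below the lowest Control array at 3.00. The difference was −0.37 (SE 0.12, interval −0.61 to −0.12, limma adjusted p = 0.021). It was called in 14 of 20 other fits and was lost without Control replicate 1 (0.0636), Control replicate 3 (0.069) or Hemin replicate 1 (0.0622), and without normalization between arrays its sign turned to 0.20, below an all-gene median of 0.62.

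Cubn read 5.51, 5.37, 5.49 and 5.59 in Hemin, above every Control array, with a difference of 0.37 that missed the threshold (interval 0.03 to 0.71, adjusted p = 0.08) and was called without Control replicate 2 (0.0426). Cubn and Dab2 were the members without overlap, 2 of 6 beside 37.6% of genes. Lrp2 was tightly grouped at 5.58, 5.54, 5.53 and 5.52, overlapping the upper end of the Control range, with replicate 1 just above it (0.07, interval −0.14 to 0.28, adjusted p = 0.594). Folr1 (−0.22, adjusted p = 0.24), Amn (0.11, adjusted p = 0.47) and Clcn5 (0.04, adjusted p = 0.807) were not called, and the median of 0.06 equalled that of all genes.

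The effect of Hemin differed between injured and uninjured kidneys for Dab2. Its difference was 0.20 within IRI and −0.37 without IRI, and the interaction was 0.57 (SE 0.16, interval 0.22 to 0.91, limma adjusted p = 0.042). It was the only member called, 1 of 6, where 5.83% of 19058 genes were called in that direction, 1.94% in the other and 7.78% in either. The sign was the same in all 27 other fits, but the call held in 8 of them: leaving out 1 array at a time lost it for 13 of 16 arrays (adjusted p up to 0.086), and kept it only without Control replicate 2, IRI replicate 3 or IRI+Hemin replicate 4. The interaction of Lrp2 was 0.27 (interval −0.03 to 0.56, adjusted p = 0.277), and the intervals of the other 4 members also spanned 0.

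IPC+IRI vs Hemin compares arrays of one scan day, one group with injury and one without. Lrp2 was lower by 0.78 (−0.78, interval −0.99 to −0.57, adjusted p = 1.58e-05), Dab2 by 0.48 (−0.48, adjusted p = 0.00408) and Cubn by 0.47 (−0.47, adjusted p = 0.0295). These are 3 of 6 called lower, where 22.7% of 18536 genes were called lower and 35.8% in either direction. The Cubn call was lost without any 1 of Hemin replicates 1, 3 and 4 and IPC+IRI replicates 1, 2 and 3 (0.0537 to 0.0713), whereas Lrp2 was called in all 19 other fits. Lrp2 was lower in the group with IRI on both scan days that held such a pair of groups. IPC+IRI and Hemin also differ in pre-conditioning, the drug and the slide, so this pair does not measure IRI alone. Folr1 (−0.33, adjusted p = 0.0779), Amn (−0.22, adjusted p = 0.149, and 0.0229 without IPC+IRI replicate 1) and Clcn5 (−0.12, adjusted p = 0.456) were not called. The arrays of 4 of 6 members did not overlap, beside 38.7% of genes, and the median was −0.40 beside −0.15.

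**Figure D2:**
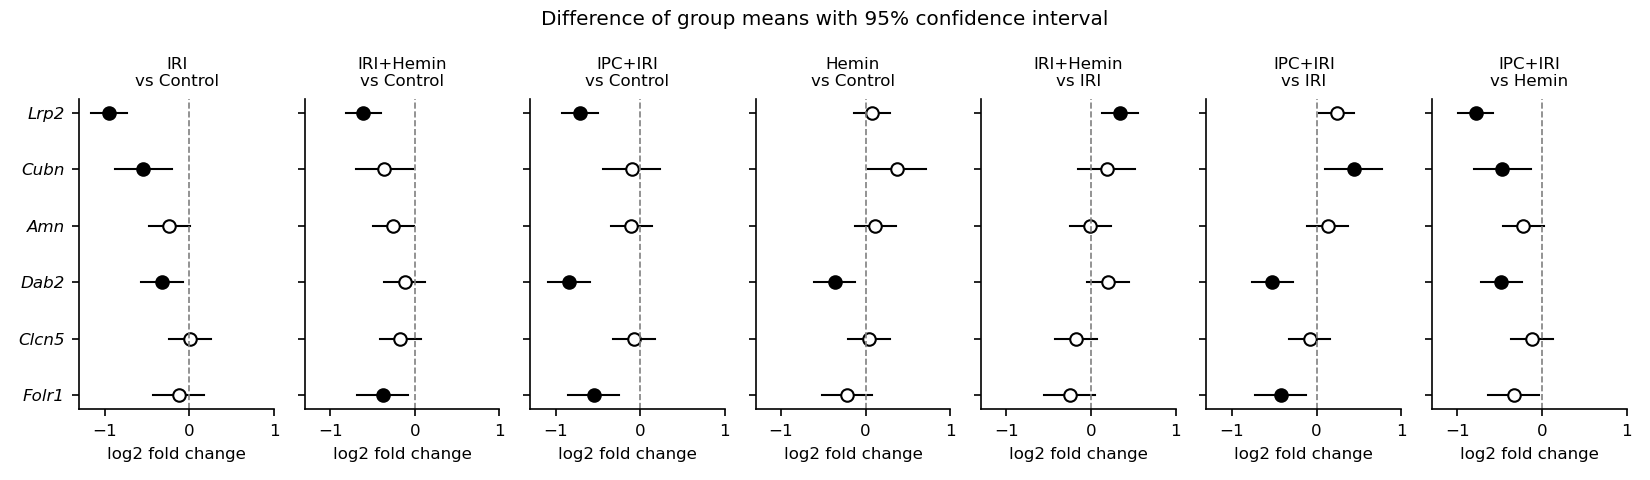
Difference in log2 signal (horizontal axis) of the 6 genes in the 7 comparisons between groups, with lines for the 95% confidence interval and filled points for an adjusted p below 0.05. Lrp2 lies left of 0 in all 4 comparisons of an injured with an uninjured group, from −0.95 to −0.61, and Clcn5 crosses 0 in each.

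Ordered by mean, Lrp2 ran Hemin, Control, IRI+Hemin, IPC+IRI and IRI, and only the step of 0.61 from Control to IRI+Hemin was free of overlap. Cubn ran Hemin, Control, IPC+IRI, IRI+Hemin and IRI, with the step of 0.37 from Hemin to Control free of overlap. Dab2 had Control on top and IPC+IRI at the bottom, separated from the next group, Hemin, by 0.48. For Folr1 the step of 0.17 from IRI+Hemin down to IPC+IRI was free of overlap, and no neighbouring groups of Amn or Clcn5 were apart.

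Signal by probe shows what the gene values average, and the clearest case is Clcn5. Clcn5 probe 2 read −0.16, −0.17, 0.12 and 0.19 in Control and 0.68, 0.75, 0.75 and 0.42 in IRI, with no overlap. It rose by 0.66 (limma adjusted p = 7.57e-05), while probe 1 differed by −0.11 (adjusted p = 0.5). In IRI+Hemin probe 2 read 0.73, 0.61, 0.72 and 0.63, or 0.68 above Control (adjusted p = 4.16e-05), and probe 1 was lower than Control (−0.34, adjusted p = 0.0287). In IPC+IRI probe 2 was 0.45 above Control (adjusted p = 0.00183) and 0.35 above Hemin, the group scanned with it (adjusted p = 0.0182). Hemin arrays of probe 2, from 0.02 to 0.16, lay within the Control range. Probe 2 was the dimmer of the pair, at −0.01 ± 0.19 in Control beside 2.84 ± 0.06 for probe 1 (SD, n = 4).

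The distance of Clcn5 probe 1 over probe 2 was itself compared between groups, in a fit over 8480 pairs of probes of 4790 genes. It shrank by 0.77 in IRI vs Control (−0.77, SE 0.11, limma adjusted p = 3.88e-05), by 1.02 in IRI+Hemin vs Control (−1.02, adjusted p = 7.76e-07) and by 0.61 in IPC+IRI vs Control (−0.61, adjusted p = 0.00014). Between IPC+IRI and Hemin, of one scan day, it shrank by 0.54 (−0.54, adjusted p = 0.00136). Such unequal change was not rare: 23% of all probe pairs were called in IRI vs Control, 53.9% in IRI+Hemin vs Control, 49.6% in IPC+IRI vs Control and 19.5% in IPC+IRI vs Hemin.

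Of the 4 Lrp2 probes, 3 fell in IRI. Probe 1 changed by −0.97 (adjusted p = 1.65e-06), probe 2 by −0.90 (2.19e-05) and probe 3 by −0.94 (0.00163), whereas probe 4, the farthest from the 3′ end, changed by −0.13 (0.366). Probe 4 read −0.44 ± 0.16 in Control and −0.57 ± 0.18 in IRI (SD, n = 4). It was also far dimmer than probe 1, which read 6.83 ± 0.12 in Control, and position and brightness were not tested apart. The distance from probe 1 to probe 4 shrank by 0.84 (−0.84, SE 0.16, limma adjusted p = 0.00064).

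The rise of Lrp2 with Hemin before IRI was carried by probe 1. Probe 1 was 0.45 higher in IRI+Hemin than in IRI (adjusted p = 0.00279), probe 2 was 0.17 higher (0.278) and probe 4 0.08 higher without a call, but probe 3 was lower (−0.59, 0.0324). Probe 3 read 1.46, 0.90, 1.09 and 1.70 in IRI and 0.52, 0.70, 0.71 and 0.88 in IRI+Hemin, so all IRI+Hemin arrays lay below all IRI arrays. The distance of probe 1 over probe 3 widened by 1.04 (SE 0.23, limma adjusted p = 0.00124), in a comparison where 51.2% of all probe pairs were called. In IPC+IRI vs IRI probe 1 rose by 0.29 (0.0382) and probe 3 differed by −0.40 (0.135). Control arrays of probe 3 were themselves spread, from 1.65 to 2.76.

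Both Dab2 probes moved alike in direction but not in size. In IPC+IRI vs IRI probe 1 changed by −0.46 (limma adjusted p = 0.00544) and the junction probe 2 by −0.94 (0.000255), and in Hemin vs Control they changed by −0.34 (0.0379) and −0.52 (0.0213). The distance of probe 1 over probe 2 widened by 0.48 in IPC+IRI vs IRI (limma adjusted p = 0.0211), where 47.8% of all probe pairs were called. In IRI vs Control probe 1 changed by −0.35 (0.0279), whereas probe 2 changed by −0.16 and was not called (0.447). The interaction was 0.56 for probe 1 (adjusted p = 0.056) and 0.64 for probe 2 (0.104), neither of them called. Folr1 probe 1 fell in IPC+IRI vs IRI (−0.44, 0.0228) where probe 2 differed by −0.05 (0.79). Counted by probe, 1 of 12 was called higher and 5 lower in IRI vs Control, where 48.3% of 25940 probes were called in either direction.

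**Figure D3:**
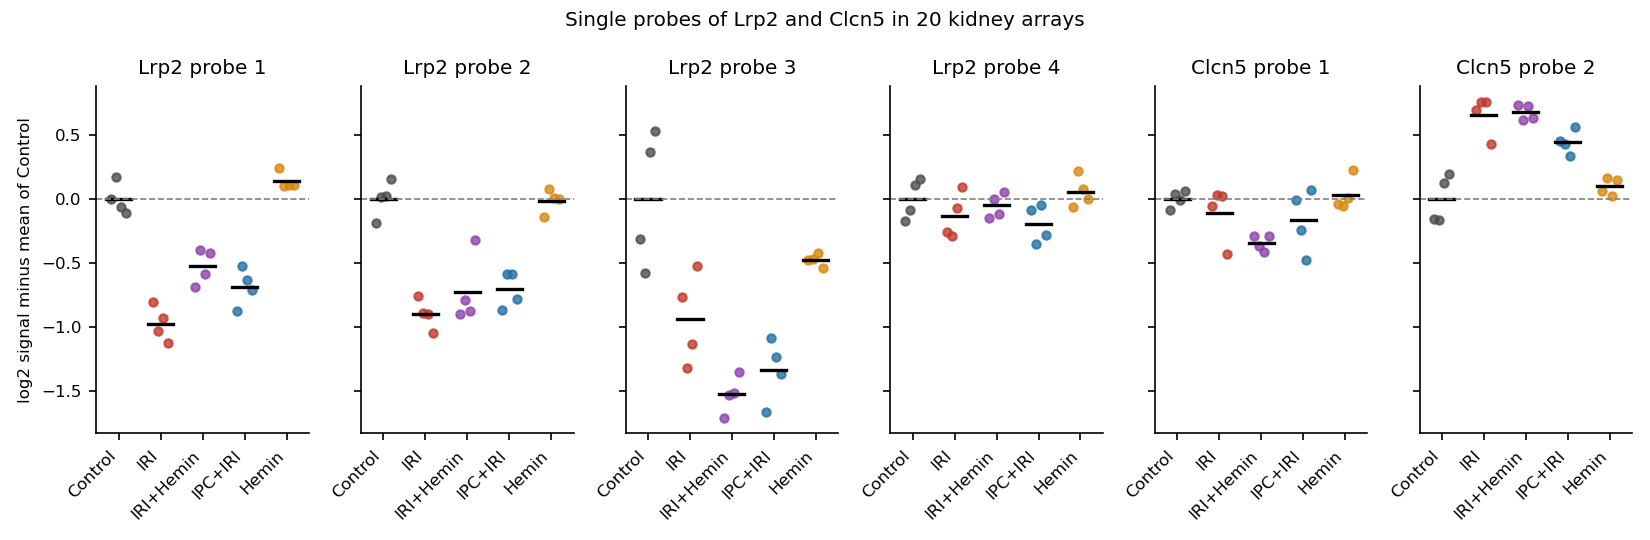
Signal of the 4 Lrp2 and 2 Clcn5 probes on each array minus the mean of the Control arrays (vertical axis, log2), one panel per probe and by group, with points for arrays and bars for group means. Clcn5 probe 2 rises in the 3 groups with IRI while probe 1 does not, and Lrp2 probe 4 stays near 0 where probes 1 to 3 fall by 0.90 to 0.97 in IRI.

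Around the receptors, the genes of the uptake route moved in both directions in IRI vs Control. Of 10 receptor partners and adaptors, 2 rose and 3 fell (median −0.13), where 17% of all genes tested were called higher and 33.7% lower. Appl1, an endosomal adaptor, rose by 0.63 (limma adjusted p = 0.00057), while Ankra2, an ankyrin repeat protein that binds the megalin tail, fell by 0.74 (0.000467) and Ocrl, the phosphatase lost in Lowe syndrome, fell by 0.45 (0.00953). Lrpap1, the chaperone of megalin, read 5.14 ± 0.13 in Control and 5.03 ± 0.11 in IRI (SD, n = 4, adjusted p = 0.436).

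Of 16 genes of the clathrin coat and of scission, 4 rose and 2 fell (median 0.13), against 17% called higher and 33.7% called lower among all genes, the shares that also apply to the endosome and acidification lists. The light chain gene Cltb rose by 0.71 (limma adjusted p = 0.000279) and Hip1r, a link between clathrin and actin, by 0.70 (0.000768), and the scaffold genes Itsn1 and Eps15 fell by 0.58 and 0.23. Of 18 genes of early and recycling endosomes, 6 rose and 2 fell (median −0.02), with Ehd4 (0.95) and the early endosome GTPase Rab5a (0.62, 2.03e-05) at the top and Vps4a (−0.51) and Zfyve20 (−0.38) at the bottom. Acidification was the quietest list: 1 of 18 genes was called, the proton pump subunit Atp6v0a1, which rose by 0.63 (0.000266).

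Further along the route, 3 of 15 lysosomal genes rose and 2 fell (median −0.06), and 17% of all genes were called higher and 33.7% lower. Scarb2, the sorting receptor of glucocerebrosidase, rose by 0.98 (limma adjusted p = 5.34e-06) and Ctsl, a protease, by 0.36. Ctns, the cystine exporter, fell by 0.88 (0.000314) and the channel Mcoln1 by 0.32. In the list of folate, cobalamin and albumin handling 2 of 10 rose and 2 fell, beside the same shares of all genes: the mitochondrial folate carrier Slc25a32 rose by 1.16 (1.54e-07) and Abcc1 by 0.34, while Folr2, the folate receptor of macrophages, fell by 1.50 (2.56e-06).

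The relatives of megalin and of ClC-5 give a comparison within family. Of 12 other genes of the LRP family and related receptors tested, 2 rose, 1 fell and 9 were not called, where 17% of all genes were called higher and 33.7% lower. Lrp8 rose by 2.04 (limma adjusted p = 5.86e-06) and Lrp3 fell by 0.67 (0.000211). Of 8 other CLC genes, 2 fell and none rose, and Clcn6 fell by 0.45 (0.0328). The endosomal exchangers Clcn3 (0.19, 0.218) and Clcn4-2 (−0.08, 0.811) were not called.

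The coat and pump lists were counted in the other comparisons as well. In IPC+IRI vs IRI 2 of 16 clathrin genes were called higher and 8 lower (median −0.22), and 3 of 18 acidification genes were called higher and 7 lower (median 0.04), where 26% and 17.7% of all genes were called. In IRI+Hemin vs IRI these counts were 3 and 6 of 16 (median −0.23) and 3 and 7 of 18 (median −0.04), where 26.1% and 18% of all genes were called. In Hemin vs Control they were 3 and 7 of 16 and 4 and 5 of 18, where 18.4% and 17.6% were called. They were 4 and 9 of 16 (median −0.35) and 6 and 5 of 18 (median 0.13) in IPC+IRI vs Control, where 23.1% and 32.6% were called, and in IRI+Hemin vs Control 3 and 7 of 16 and 4 and 6 of 18, where 24.4% and 33.2% were called. The counts were 3 and 1 of 16 and 1 and 1 of 18 in IPC+IRI vs Hemin, where 13.1% and 22.7% of all genes were called. Comparisons with the same reference group share its arrays.

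**Figure D4:**
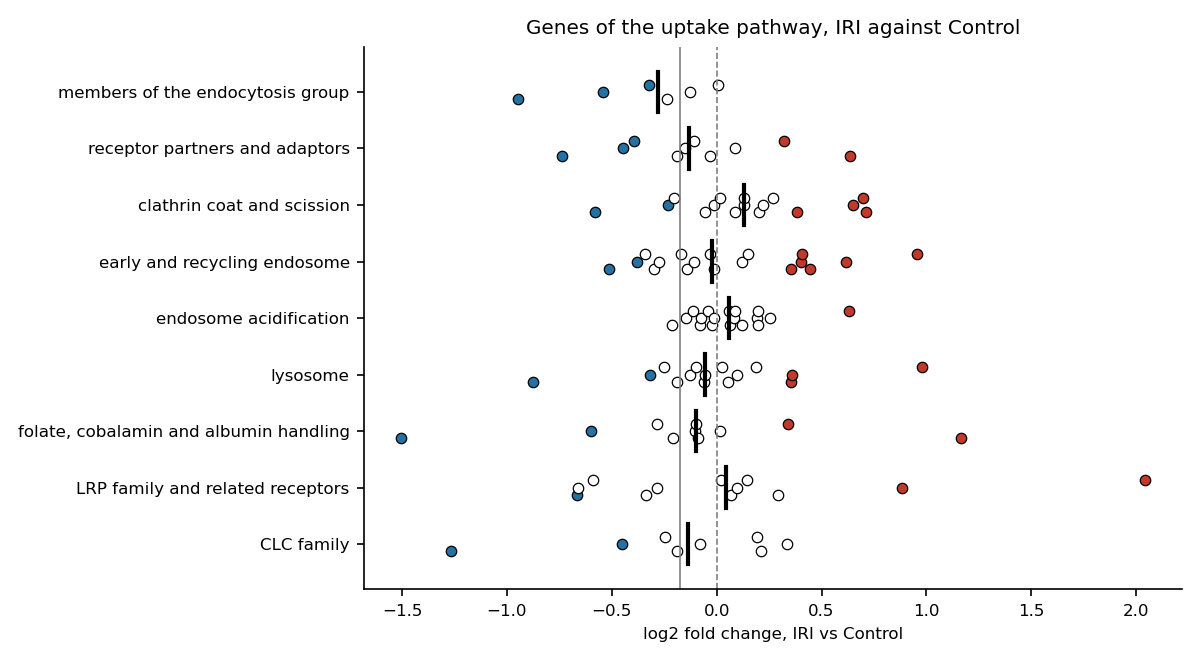
Difference in log2 signal (horizontal axis) of each gene of the uptake lists in IRI vs Control, one row per list with the 6 members in the top row, with red points for genes called higher, blue for lower and white for not called, a thick bar for the list's median a grey line for the median of all genes at −0.17 and a dashed line at 0. The acidification list shows 1 called gene of 18, and the early and recycling endosome list shows 6 higher and 2 lower.

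Markers of cell types moved with these groups. The summed signal of the 8 markers of proximal tubule segments 1 and 2, in multiples of the array's 75th percentile, ran from 280 to 346 in Control, 241 to 336 in IRI, 160 to 217 in IRI+Hemin, 153 to 224 in IPC+IRI and 216 to 262 in Hemin. In IRI vs Control 3 of 8 of them were called lower and none higher (median −0.28, with 33.7% of all genes called lower), Slc5a12, a lactate transporter, with the largest fall (−1.67, limma adjusted p = 1.13e-05). In IPC+IRI vs Control 6 of 8 were called lower (median −0.85, with 32.6% of all genes called lower), in IRI+Hemin vs Control 6 of 8 (−0.62, 33.2%) and in Hemin vs Control 3 of 8 (−0.30, 17.6%). The sum of the 10 markers of the whole proximal tubule or segment 3 ran from 215 to 344 over all arrays, and none of them was called in IRI vs Control. In IRI+Hemin vs Control 1 of these 10 was called higher and 5 lower (median −0.46), in IPC+IRI vs Control 1 and 3 (−0.19), and in Hemin vs Control 2 and 1 (0.19). Against IRI, the markers of segments 1 and 2 were called higher and lower in 1 and 5 of 8 cases in IPC+IRI (median −0.49, where 26% and 17.7% of all genes were called) and in 1 and 3 of 8 in IRI+Hemin (−0.20, 26.1% and 18%). The corresponding counts for the list of 10 were 1 and 3 (−0.07) and 3 and 4 (−0.49). Their part in the member values was not tested.

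Macrophage, neutrophil and injured tubule markers had higher sums in IRI than in Control, while single markers went both ways. Of the macrophage markers 2 of 6 tested were called higher in IRI vs Control, Cd14 by 2.86 and Cd68 by 2.23, and Emr1 differed by −0.86 (limma adjusted p = 0.115). Of the 3 neutrophil markers S100a8 and S100a9 were called higher and Mpo lower (−0.74), and 6 of 7 injured tubule markers were called higher, where 17% of all genes were called higher and 33.7% lower. Macrophage markers summed to 2.66 to 3.27 in Control, 6.02 to 7.59 in IRI, 5.03 to 8.76 in IRI+Hemin, 3.14 to 9.24 in IPC+IRI and 2.53 to 3 in Hemin, and neutrophil markers to 0.287 to 0.628, 2.44 to 7.99, 2.17 to 9.38, 6.31 to 19.1 and 0.477 to 1.59 in the same order. The 7 injured tubule markers summed to 121 to 177 in Control, 243 to 328 in IRI, 244 to 324 in IRI+Hemin, 231 to 322 in IPC+IRI and 132 to 166 in Hemin. The brightest of them, Spp1, weighs most in these sums (means of 7.38 in IRI, 7.67 in IRI+Hemin and 7.60 in IPC+IRI on the log2 scale, not called against IRI). By gene, none of the 7 was called higher and 4 were called lower in IRI+Hemin vs IRI (median −0.60, where 18% of all genes were called lower), namely Lcn2 (−1.32), the kidney injury marker Havcr1 (−0.92), Vcam1 (−0.86) and Clu (−0.60). For IPC+IRI vs IRI the counts were none and 2 (median −0.51, where 17.7% were called lower), Lcn2 (−2.06) and Clu (−0.51). All 7 macrophage markers and the 3 neutrophil markers on the array were well above background on at least part of the arrays, 5 of the former and 1 of the latter on all 20. Endothelial markers summed to 19 to 23.8 in Control, 20.1 to 26.5 in IRI, 27.6 to 34.8 in IRI+Hemin, 12.2 to 29.9 in IPC+IRI and 23.5 to 30.3 in Hemin, so that every IRI+Hemin array lay above Control and IRI. Of these 7 markers 3 were called higher and 1 lower in IRI+Hemin vs IRI (median 0.16), none and 4 in IPC+IRI vs IRI (−0.63), and 1 and 2 in IRI vs Control (0.09). In the same order, 26.1% and 18%, 26% and 17.7%, and 17% and 33.7% of all genes were called higher and lower. Red cell markers, the globins Hba-a1 and Hbb-b1 and the heme synthesis enzyme Alas2, were all 3 called lower in IPC+IRI vs IRI (median −1.61), the comparison in which Cubn was called higher and Dab2 and Folr1 lower, and none was called in the other comparisons. Their sum ran from 31.6 to 140 in Control, 75.9 to 97.2 in IRI, 38.2 to 155 in IRI+Hemin, 10.6 to 54.2 in IPC+IRI and 31.9 to 62.5 in Hemin.

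Collecting duct markers summed to 30.2 to 39 in Control, 36.6 to 53.8 in IRI, 45.4 to 56.6 in IRI+Hemin, 40.8 to 62.1 in IPC+IRI and 40.1 to 49.4 in Hemin, so that the last 3 groups did not overlap Control. Called higher and lower were 1 and 3 of these 6 markers in IRI vs Control (median −0.24), 3 and 2 in IRI+Hemin vs Control (0.11), 3 and 1 in IPC+IRI vs Control (0.32), 1 and 1 in Hemin vs Control (0.26), 2 and 1 in IRI+Hemin vs IRI (0.07) and 2 and none in IPC+IRI vs IRI (0.25). In the same order, 17% and 33.7%, 24.4% and 33.2%, 23.1% and 32.6%, 18.4% and 17.6%, 26.1% and 18%, and 26% and 17.7% of all genes were called higher and lower. These shares also apply to the lists that follow. Of the 5 podocyte markers 2 were called lower in each of the 3 injury groups against Control, with medians of −0.24 in IRI, −0.38 in IRI+Hemin and −0.26 in IPC+IRI, and none in Hemin. Of all genes 33.7%, 33.2% and 32.6% were called lower in the 3 injury groups, in that order. The 5 thick limb and distal tubule markers had no call in IRI vs Control, none in IPC+IRI vs IRI, and 1 higher and 1 lower in IRI+Hemin vs IRI. Among the 5 fibroblast and pericyte markers 1 was called lower in IRI vs Control, and 1 was called higher against IRI in each of IRI+Hemin and IPC+IRI. The part of any of these markers in the member values was not tested.

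Across the 20 arrays, the genes whose centred profiles lay closest to each member were mostly outside the uptake route. Closeness was the root mean square difference in log2 signal among 14472 genes well above background on every array. Nearest to Lrp2 were Clic5 (0.13), Rnf160 (0.13) and Traf3ip1 (0.16). Nearest to Dab2 were Inpp5b (0.15) and Scly (0.17), and nearest to Folr1 were Mon1a (0.10), Man2b1 (0.12) and Tufm (0.14). Cubn had a probe without a gene name, Cnot6l and Kazald1 (all 0.16), Amn had 2610507B11Rik, an unnamed Ensembl gene and Cmbl (all 0.11), and Clcn5 had Ldha (0.09), Asph and 2310022A10Rik (both 0.10). The members were not each other's nearest: Cubn ranked 757th for Lrp2, Lrp2 877th for Cubn, and Folr1 267th for Dab2. All of these distances share the same arrays and scaling.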

How the data were processed

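Total kidney RNA, selected by integrity number, was measured by 1-colour hybridisation on Agilent mouse arrays after Cy3 labelling. The intensity values are the deposited scanner output, in which the authors' Agilent Feature Extraction software (9.5.3.1 in the submitters' processing notes) had subtracted background from each spot. The deposited log2 values are the authors' table of the same signal, with 18.1% of values blank; 99.63% of the others lay within 0.001 of log2 of the processed signal, so the table holds no scaling between arrays, and it was used as an alternative. In it 23 of 240 values of the member probes are blank, all with a local background flag (10 of them for Cubn). A normalization between arrays is not given in the sources used here.

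Outlier spots (0.208% of 43379) were removed, replicate spots were averaged, signals were expressed relative to the 75th percentile of the array, and the 41174 probes were averaged by gene name on the linear scale before log2, as in the study's methods. A bright probe therefore weighs more in the gene value. A gene was tested with at most 1 missing value and when 3 or 4 arrays of one group or the other were well above background. Linear models over all 20 arrays were fitted in R 4.3.3 by limma 3.58.1 (tables were read by data.table, version 1.17.8), with 15 residual degrees of freedom and Benjamini-Hochberg adjustment over all genes at 0.05. SAM, the study's test, was not run, since it permutes labels. On simulated data of the size of IRI vs Control, 66 or 67 of 17612 genes were changed at each size. Recovered were 19.7% of changes of 0.5, 80.6% of changes of 1 and 98.5% of changes of 2 on the log2 scale, with 6 false calls. So few changed genes make the adjusted threshold stricter than in the measured data, where 50.7% of genes were called. Exact permutation of 4 against 4 arrays allows 70 regroupings and no p below 0.0286, two-sided. The labels do not say how many animals stand behind the arrays, so p-values measure the spread between these arrays. Their number limits the precision.

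Genes in the text are the 6 members, for each list up to 2 called genes that rose most and 2 that fell most in IRI vs Control, genes needed for their role, and the 3 genes most like each member. Some genes that this rule names are not reported here. The members and lists were chosen with earlier results of these data known. Tfeb, Ly6g and Elane were not found by name. The comparison of probe pairs was added after the probe values were seen. Alternatives were normexp (offset 50), no normalization, quantile normalization, the brightest probe, the 75th percentile over probes above background on every array, the mean of log2 values, the deposited table, no or a strict filter, only the arrays compared, the replicate number as a block, the methods' t-test, and leaving out each array. A slide or day block could not be fitted beside the groups.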

Additional observations from a re-analysis of the deposited data

Results flagged for a closer look

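Cubn on IRI+Hemin replicate 2 read 4.21, and its gap to the next array took up 0.937 of the group's range, beyond Dixon's 95% critical value for 4 arrays. Clcn5 on Hemin replicate 4 read 2.24, with a gap of 0.861 of the range. Both were single high or low arrays among 30 groups of 4 arrays examined, 6 genes in 5 groups, and chance alone marks about 1 in 20 such groups. Without IRI+Hemin replicate 2, Cubn differed by 0.37 in IRI+Hemin vs IRI (limma adjusted p = 0.0375) and by −0.18 in IRI+Hemin vs Control (adjusted p = 0.279).

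The change of Dab2 with Hemin differed between kidneys with and without IRI, by an interaction of 0.57 on the log2 scale (limma adjusted p = 0.042). All 5 groups lie on slides of their own and the 4 groups in this comparison on 3 scan days, so that slide and group cannot be told apart in it.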

How the results depend on the processing

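Lrp2 in IRI vs Control and in IPC+IRI vs Hemin was called in the same direction under every alternative run, and no called member turned its sign except Dab2 in Hemin vs Control and Folr1 in IRI+Hemin vs Control, both without normalization between arrays. The limits are the pair of probes behind Clcn5, which makes its sign depend on how probes are averaged, and the slides, since every group has its own. The simulated data changed far fewer genes than were called here, so their recovery does not apply to the measured comparisons. Members not called are still not shown to be unchanged. Because of blanks, the deposited table tested Cubn in 0 and Lrp2 in 2 of 8 comparisons. Causes of the shifts listed here were not tested.

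Without normalization between arrays the median over all genes was 0.62 in Hemin vs Control, 0.38 in IRI+Hemin vs Control, 0.35 in IPC+IRI vs Control, 0.45 in IRI+Hemin vs IRI and 0.41 in IPC+IRI vs IRI, so signs there are relative to those shifts. Calls over all genes were 3425 higher and 3261 lower in Hemin vs Control, and 8773 and 478 without normalization. In IRI vs Control they were 3007 and 5964, and 1774 and 1370 under normexp. Without normalization, Hemin vs Control gave 0.20 for Dab2 and 0.35 for Folr1. IRI+Hemin vs Control gave 0.36 for Dab2, 0.31 for Clcn5, 0.12 for Cubn, 0.23 for Amn and 0.11 for Folr1. IPC+IRI vs Control gave 0.36 for Clcn5, 0.34 for Cubn and 0.33 for Amn, IRI+Hemin vs IRI gave 0.18 for Clcn5, 0.35 for Amn and 0.11 for Folr1, and IPC+IRI vs IRI gave 0.23 for Clcn5. The number of members called was then 1 in IRI vs Control, 0 in IPC+IRI vs Control, 4 in Hemin vs Control, 0 in IRI+Hemin vs Control, 1 in IPC+IRI vs Hemin and 0 in the interaction of Hemin with IRI. Over all genes 1936 were called higher and 3346 lower of 17711, 6186 and 2042 of 18342, 8773 and 478 of 18572, 6697 and 1957 of 18483, 1023 and 3020 of 18536, and 320 and 82 of 19058, in that order.

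Under normexp the sign turned for Clcn5 in IRI vs Control (−0.0733) and IPC+IRI vs IRI (0.0072), for Amn (0.0717) and Folr1 (0.11) in IRI+Hemin vs IRI, and for Folr1 in the interaction (0.21), and no member, 0 each, was called by limma in IPC+IRI vs IRI, Hemin vs Control or the interaction. Over all genes it called 2291 higher and 2383 lower of 17663 in IPC+IRI vs IRI. The counts were 1950 and 1699 of 18572 in Hemin vs Control, and 117 and 29 of 19058 in the interaction. Quantile normalization turned Clcn5 in IRI vs Control (−0.0943) and Clcn5 (−0.0848) and Amn (−0.0535) in Hemin vs Control, and called 2 members in Hemin vs Control, 5 in IRI+Hemin vs Control and 5 in IPC+IRI vs Hemin. Over all genes it called 3646 higher and 3381 lower of 18572 in Hemin vs Control. The counts were 4781 and 5757 of 18483 in IRI+Hemin vs Control, and 2617 and 3840 of 18536 in IPC+IRI vs Hemin. The percentile over probes above background on all arrays turned Clcn5 in IRI vs Control (−0.0734), Lrp2 (−0.0424), Clcn5 (−0.0741) and Amn (−0.0034) in Hemin vs Control and Folr1 in the interaction (0.0504), and called 5 members in IRI+Hemin vs Control. There it called 3679 of 18483 genes higher and 7333 lower.

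Taking the brightest probe turned Clcn5 in IRI vs Control (−0.11) and called 0 members in the interaction, where 1113 of 19058 genes were called higher and 402 lower. The mean of log2 values turned Clcn5 in IPC+IRI vs Control (0.14), IRI+Hemin vs Control (0.17) and IPC+IRI vs Hemin (0.0732) and Lrp2 in Hemin vs Control (−0.0744), and called 0 in IRI+Hemin vs IRI. There it called 4285 of 17831 genes higher and 3078 lower. In the deposited table the turned signs were Clcn5 in IRI vs Control (−0.18), IPC+IRI vs IRI (0.054) and IRI+Hemin vs IRI (0.0278), Amn in IRI+Hemin vs IRI (0.19) and the interaction (0.0464), and Folr1 in the interaction (0.12). It called 1 of 3 members tested in IPC+IRI vs Control, 2 of 5 in IRI+Hemin vs IRI, 0 of 4 in Hemin vs Control and 1 of 4 in IRI+Hemin vs Control. Over all genes it called 2745 higher and 4386 lower of 13081, 4804 and 1352 of 12545, 3233 and 2016 of 13553, and 3196 and 4108 of 13100, in that order. With no filter on dim genes 0 were called in the interaction, where 899 of 27827 genes were called higher and 266 lower. With only the arrays compared, 0 were called in IRI+Hemin vs IRI, 2 in Hemin vs Control and 0 in the interaction. Over all genes 4109 were called higher and 2759 lower of 17831, 4014 and 3631 of 18572, and 1133 and 398 of 19058, in that order. The methods' t-test called 2 in Hemin vs Control and 4 in IRI+Hemin vs Control, both unadjusted and after Benjamini-Hochberg, and 1 in IPC+IRI vs IRI after it. Over all genes in Hemin vs Control it called 4913 higher and 4177 lower of 18572 unadjusted, and 3453 and 3162 adjusted. In IRI+Hemin vs Control the counts were 4424 and 5940 of 18483, and 3793 and 5076 adjusted. In IPC+IRI vs IRI they were 3259 and 2493 of 17663 adjusted.

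Replicate numbers are array positions on a slide. Deviations of arrays with the same number correlated at 0.052 to 0.145 in IRI vs Control and at −0.384 to 0.108 in IPC+IRI vs Hemin, so the numbers were not taken to pair samples. With the replicate block, 0 members were called in the interaction (Dab2 0.0516), Cubn in IPC+IRI vs IRI was lost (0.0522), and no other call of a member changed. Of 19058 genes, 993 were called higher and 280 lower in the interaction with this block.

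Leaving out 1 array at a time, the members called ran from 0 to 2 in Hemin vs Control, 1 to 3 in IRI+Hemin vs Control, 1 to 4 in IPC+IRI vs IRI, 1 to 3 in IRI+Hemin vs IRI and 0 to 1 in the interaction. With all arrays, 36%, 57.5%, 43.7%, 44.1% and 7.78% of all genes were called in either direction, in that order. Signs turned within these ranges: Clcn5 −0.0352 to 0.11 and Folr1 −0.23 to 0.0169 in IRI vs Control, Clcn5 −0.15 to 0.0167 in IPC+IRI vs Control, −0.0161 to 0.0667 in Hemin vs Control and −0.18 to 0.0084 in IPC+IRI vs IRI, Amn −0.0496 to 0.0246 in IRI+Hemin vs IRI, and Folr1 −0.17 to 0.0691 in the interaction. At an unadjusted p below 0.05 the interaction had 1 member called, Dab2, where 4256 of 19058 genes were below it.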
